A study of Homo sapiens with 8 samples.

Results

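The 10 genes described here are markers used to place glioblastoma cells by lineage and by stem-like state, namely PTPRZ1, PTN, MDK, SOX2, OLIG2, NES, VIM, GFAP, PROM1 and CHI3L1. Each was found as the row of the deposited table whose probe annotation gave exactly 1 gene symbol equal to the gene's name, and of several rows the one with the largest average signal across the 8 samples stood for the gene. All 10 were present, among 33458 genes with such a row, and only VIM had more than 1 row. RNA came from LN229, an established human glioblastoma line grown with serum. The samples titled 23 Pa CSS (4) were held for 18 h under 23 Pa of compressive solid stress (CSS), applied by steel discs resting on an agar layer over cells on a porous insert. The samples titled no CSS (4) had neither agar nor discs, so the agar and the weight cannot be told apart. Source names and descriptions state the opposite condition to the title in every sample. Groups follow the titles, and every sign below turns if the titles are wrong.

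Pleiotrophin (PTN) and midkine (MDK) are secreted, heparin-binding growth factors. Both bind PTPRZ1, a receptor-type tyrosine phosphatase of glial progenitors and of many gliomas, and ligand binding lowers its phosphatase activity. SOX2 and OLIG2 are transcription factors of neural stem cells and of the oligodendrocyte lineage. Nestin (NES), vimentin (VIM) and GFAP are intermediate filament proteins of neural progenitors, of mesenchymal and immature glial cells, and of astrocytes. PROM1, the membrane protein CD133, has been used to sort stem-like tumour cells, and CHI3L1 is a secreted chitinase-like glycoprotein linked to the mesenchymal state of glioblastoma.

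PTPRZ1, its ligand PTN and NES are shown by the 250 bases before their annotated start, because PTPRZ1 was the member that changed, PTN is a ligand that gave no such difference, and NES had the next smallest p-value. The sequences are those of RefSeq (GRCh38.p14), 5′ to 3′ on the strand of the gene, and capitals mark the letters ACAAT or, on the other strand, ATTGT, the core of the motif bound by SOX proteins. The PTPRZ1 window lies on the plus strand at chr7:121872911-121873160, the PTN window on the minus strand at chr7:137343734-137343983 and the NES window on the minus strand at chr1:156677408-156677657.
PTPRZ1: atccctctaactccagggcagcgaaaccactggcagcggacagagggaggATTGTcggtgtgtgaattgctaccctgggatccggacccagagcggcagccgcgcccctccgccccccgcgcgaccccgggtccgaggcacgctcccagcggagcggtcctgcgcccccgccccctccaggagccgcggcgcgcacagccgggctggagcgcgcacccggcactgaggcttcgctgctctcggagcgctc
PTN: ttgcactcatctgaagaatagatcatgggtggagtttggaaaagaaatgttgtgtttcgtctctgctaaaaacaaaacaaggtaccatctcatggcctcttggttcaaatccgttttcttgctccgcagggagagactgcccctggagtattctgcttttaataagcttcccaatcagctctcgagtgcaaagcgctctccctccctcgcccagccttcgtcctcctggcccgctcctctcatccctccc
NES: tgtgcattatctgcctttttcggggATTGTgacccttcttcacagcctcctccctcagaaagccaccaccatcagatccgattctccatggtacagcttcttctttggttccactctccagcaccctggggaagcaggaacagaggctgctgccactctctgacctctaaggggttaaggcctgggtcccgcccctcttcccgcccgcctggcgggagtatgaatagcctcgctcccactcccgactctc

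The window of PTPRZ1 held 29 CpG dinucleotides at 73.2% G and C, those of PTN and NES held 8 each at 50.4% and 58.0%, and the median over 35116 windows of the same length was 11 at 58.0%. The searched letters occurred once before PTPRZ1 and once before NES and were not found before PTN. They occurred in 24.6% of all windows, and a match describes the letters only. Windows were matched for 7 of the 10 genes, and MDK, OLIG2 and GFAP had none in the table used.

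Signal was compared first with background, because a log2 signal of 1 row cannot be set against that of another as an amount of RNA. The background level of an array was the 95th percentile of its 23 rows of antigenomic probes, which match no human sequence; it lay between 7.78 and 8.61 on the log2 scale. PTPRZ1, PTN, MDK, SOX2, NES and VIM were above it on all 8 arrays, 6 of the 10 genes. OLIG2, GFAP, PROM1 and CHI3L1 were below it on all 8 arrays. The same 6 were above the 95th percentile of 612 negative control rows, a level chosen after seeing the data. By these levels PTPRZ1, SOX2 and NES, among the markers of a lineage or a stem-like state, gave a signal apart from background, and OLIG2, GFAP and PROM1 did not. OLIG2, GFAP and PROM1 were above the median of the antigenomic rows (3.22 to 3.40) on all 8 arrays. None of them was above the median of the negative control rows (4.74 to 5.17) on all 8.

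Groups were compared with limma (moderated linear model, two-sided, Benjamini-Hochberg adjustment over 135750 transcript clusters, the array's units of a transcript), and a gene rose or fell where the adjusted p was under 0.05. Differences are in log2 units, the samples titled 23 Pa CSS (mean of 4) less those titled no CSS (mean of 4). Of the 10 genes 1 fell, PTPRZ1, 0 rose and 9 did not pass. Over all genes with a row 2.32% passed, 1.36% higher and 0.962% lower, and over all transcript clusters 2.01% passed, 0.581% higher and 1.43% lower. At an unadjusted p under 0.05 there were 3 of the 10, against 19.3% of all genes. Of the 6 members above background on all 8 arrays 2 had such a p, against 2706 of all 7350 genes above it. Of these 6 members 1 fell and 0 rose, against 155 and 286 of the 7350. The median difference of the 10 was 0.27, against 0.09 over all 33458 genes.

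**Figure D1:**
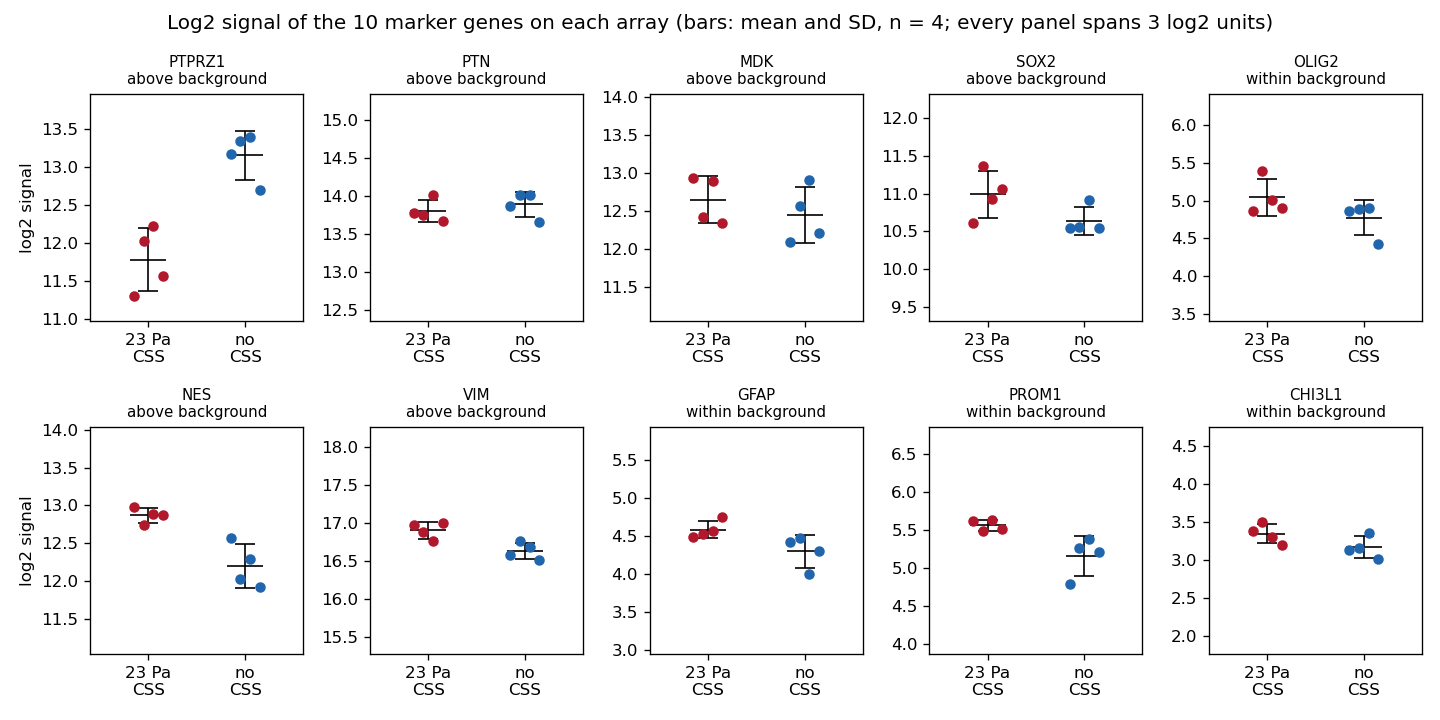
Log2 signal (y axis) of each marker gene on the 4 arrays titled 23 Pa CSS (left, red) and the 4 titled no CSS (right, blue). Every panel spans the same height but is centred on its own gene, bars are mean and SD, and the panel titles say whether all 8 arrays were above background. The PTPRZ1 points of the samples titled 23 Pa CSS, at 11.30 to 12.22, all lie below those titled no CSS, at 12.70 to 13.41.

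The receptor PTPRZ1 (transcript cluster TC0700008938.hg.1) had a log2 signal of 11.30, 12.03, 12.22 and 11.57 in replicates 1 to 4 titled 23 Pa CSS, and of 13.18, 13.34, 13.41 and 12.70 in replicates 1 to 4 titled no CSS. The groups did not overlap, and replicate 1 titled 23 Pa CSS was the lowest of the 8. PTPRZ1 averaged 11.78 ± 0.42 in the samples titled 23 Pa CSS and 13.16 ± 0.32 in those titled no CSS (SD, n = 4 each). It was therefore 2.60-fold lower, a difference of −1.38 with a standard error of 0.24 and a 95% confidence interval of −1.90 to −0.85 (limma adjusted p = 0.0206). A two-sided exact permutation test, with 70 ways to divide the samples, gave p = 0.0286, the smallest it can give. The call rested on single samples: leaving out replicate 1, 2 or 3 titled no CSS gave limma adjusted p-values of 0.0512, 0.0713 and 0.0553, and leaving out replicate 1 or 4 titled 23 Pa CSS gave 0.0532 and 0.0633. The differences then lay between −1.37 and −1.22. It also ended without moderation of the variances (adjusted p = 0.156), as did the call of every other gene that rose or fell in the lists and patterns given below, except ALDOC.

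The ligand PTN (TC0700012728.hg.1) had a log2 signal of 13.78, 13.76, 14.01 and 13.68 in the samples titled 23 Pa CSS and of 13.87, 14.02, 14.02 and 13.66 in those titled no CSS. These ranges almost coincide. Its difference was −0.09, with a 95% confidence interval of −0.45 to 0.28 (limma adjusted p = 0.862), and it was −0.40 on arrays centred on hybridisation controls (adjusted p = 0.253). The ligand MDK (TC1100007453.hg.1) had 12.93, 12.42, 12.90 and 12.33 in the samples titled 23 Pa CSS and 12.09, 12.56, 12.91 and 12.20 in those titled no CSS. The groups overlapped over most of their range. The difference of MDK was 0.21, with a 95% confidence interval of −0.29 to 0.71 (limma adjusted p = 0.729), and it was −0.10 on arrays centred on hybridisation controls. Neither interval reaches the −1.38 found for the receptor on the same scale.

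Because both rows of a pair come from the same array, the receptor was also set against each ligand within every array. A log2 shift shared by all rows of an array cancels there, but scaling that depends on the signal does not. The comparison shows unequal change and not the ratio of the proteins or of the RNAs. PTPRZ1 minus PTN was −2.48, −1.73, −1.79 and −2.11 in the samples titled 23 Pa CSS and −0.70, −0.67, −0.61 and −0.96 in those titled no CSS. The means were −2.03 ± 0.34 and −0.74 ± 0.15 (SD, n = 4 each), a shift of −1.29 between the conditions. PTPRZ1 minus MDK was −1.63, −0.40, −0.68 and −0.77 in the samples titled 23 Pa CSS and 1.09, 0.78, 0.50 and 0.49 in those titled no CSS, a shift of −1.58. In both pairs all 4 samples titled 23 Pa CSS were below all 4 titled no CSS. PTN minus MDK overlapped between the groups, with means of 1.16 ± 0.23 and 1.45 ± 0.27 and a shift of −0.29. The exact permutation test gave p = 0.0286 for each pair with PTPRZ1 and 0.143 for the pair of ligands, and 0.0429, 0.0429 and 0.143 adjusted over these 3 comparisons. PTPRZ1 alone gave the same smallest p, and PTN spanned only 0.36 over the 8 arrays. The pairs with PTPRZ1 share that row, so their p-values restate its separation of the groups and are not separate support.

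**Figure D2:**
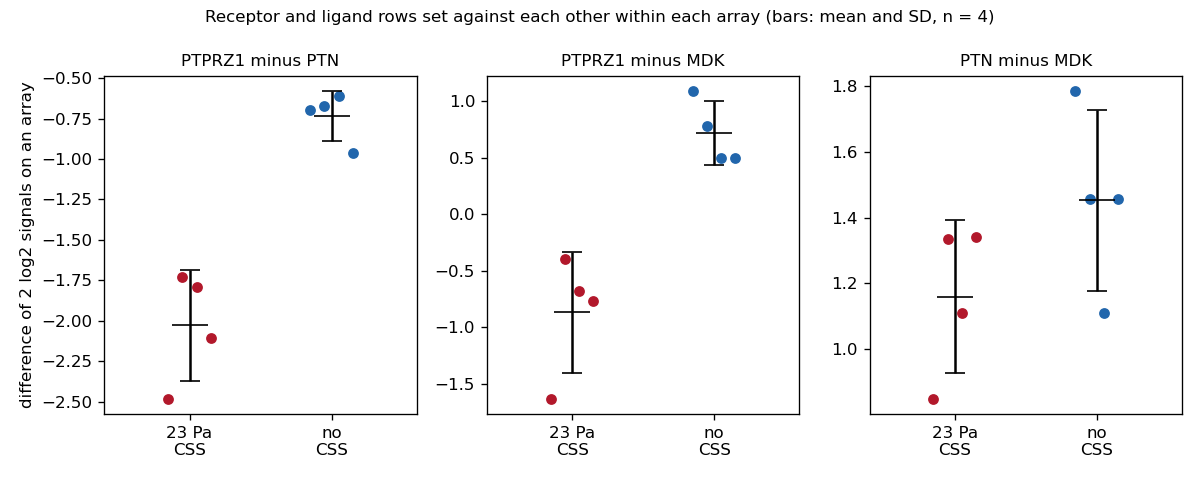
Difference of the log2 signals of 2 genes on the same array (y axis), for the 4 samples titled 23 Pa CSS (left) and the 4 titled no CSS (right), with mean and SD, each panel on its own scale. The points titled 23 Pa CSS lie below those titled no CSS in both pairs with PTPRZ1, by shifts of −1.29 (PTN) and −1.58 (MDK), whereas the points of PTN minus MDK overlap.

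Other receptors and partners of the ligands were taken from a list of 20 genes, all measured. In it NRP1, a co-receptor of semaphorins and vascular growth factors that also binds midkine, rose, PTPRZ1 was the 1 that fell, and 18 did not pass. The median of the list was 0.02, against 0.09 over all genes. NRP1 had 14.30, 14.35, 14.26 and 14.24 in the samples titled 23 Pa CSS and 13.44, 13.41, 13.01 and 12.86 in those titled no CSS, a difference of 1.11 (limma adjusted p = 0.0168). The mean of its 2 rows differed by 0.59 and did not pass (adjusted p = 0.262), and the call ended without titled no CSS replicate 4 (0.0549) or titled 23 Pa CSS replicate 4 (0.0503). PTPRG, the closest relative of PTPRZ1, was 6.55 ± 0.54 and 6.40 ± 0.52 (SD, titled 23 Pa CSS and titled no CSS), and the receptor kinase ALK was 4.29 ± 0.21 and 4.19 ± 0.27. Both were below background on all 8 arrays.

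LRP1, an endocytic receptor that binds midkine, was 10.41 ± 0.24 in the samples titled 23 Pa CSS and 9.51 ± 0.46 in those titled no CSS (SD, n = 4 each). Its groups did not overlap, but its difference of 0.90 did not pass (limma adjusted p = 0.0779). Among the syndecans, heparan sulphate proteoglycans that hold both ligands at the cell surface, SDC2 differed by 0.62 (adjusted p = 0.0942), SDC4 by 0.30, SDC3 by 0.13 and SDC1, below background on every array, by 0.08. Nucleolin (NCL), which can bind both ligands at the surface, averaged 15.12 in both groups. Of 15 measured substrates and partners of PTPRZ1, 1 rose, 0 fell and 14 did not pass, and the median of that list was 0.35. That 1 call ended with quantile normalization, on arrays centred on hybridisation controls, with the replicate block, with the mean of the gene's rows, and in 7 of the 8 fits that left out 1 sample.

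SOX2 (TC0300009632.hg.1) had a log2 signal of 10.61, 11.37, 10.92 and 11.06 in the samples titled 23 Pa CSS and of 10.54, 10.56, 10.92 and 10.55 in those titled no CSS. The groups overlapped through replicate 3 titled no CSS, the highest sample of its group. The difference was 0.35, with a 95% confidence interval of −0.08 to 0.78 (limma adjusted p = 0.43), and it was 0.037 on arrays centred on hybridisation controls. SOX2-OT, the long non-coding RNA in whose intron SOX2 lies, was 11.85 ± 0.63 in the samples titled 23 Pa CSS and 11.99 ± 0.12 in those titled no CSS (adjusted p = 0.872). OLIG2 (TC2100006948.hg.1), below background, had 4.86, 5.39, 5.01 and 4.90 in the samples titled 23 Pa CSS and 4.87, 4.89, 4.91 and 4.43 in those titled no CSS (adjusted p = 0.548).

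Of 29 measured neural stem cell factors, SOX2, NES and PROM1 among them, 1 rose, 0 fell and 28 did not pass, with a median of 0.14. The 1 was MYC, a growth-promoting transcription factor, at 6.98 ± 0.38 in the samples titled 23 Pa CSS and 6.05 ± 0.17 in those titled no CSS (SD, n = 4 each). It lay below background on all 8 arrays, and its call (limma adjusted p = 0.0477) ended without any 1 of the 8 samples, with adjusted p up to 0.133, and on arrays centred on hybridisation controls (a difference of 0.62, adjusted p = 0.128). It also ended with the replicate block (adjusted p = 0.0627) and with a trended, robust prior (adjusted p = 0.050025). MSI1, an RNA-binding protein of neural stem cells, was below background in both groups (5.72 and 5.48). FABP7, the fatty acid-binding protein of radial glia, was 14.21 ± 0.39 in the samples titled 23 Pa CSS and 14.72 ± 0.50 in those titled no CSS (adjusted p = 0.40).

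Of 14 measured oligodendrocyte progenitor markers PTPRZ1 fell, 0 rose and 13 did not pass, with a median of 0.13. Of these genes 4 were above background on all arrays. SOX10, a transcription factor of the oligodendrocyte lineage, was one of them. It was 13.60 ± 0.17 in the samples titled 23 Pa CSS and 13.26 ± 0.21 in those titled no CSS (SD, n = 4 each, limma adjusted p = 0.374). PDGFRA, the growth factor receptor of these progenitors, was another, at 9.49 ± 0.30 and 10.01 ± 0.29. Its groups did not overlap, but its difference of −0.52 did not pass (adjusted p = 0.245). OLIG1, the paralogue of OLIG2, lay at 3.20 and 3.13, below background. The line thus gave signal above background for SOX10, PDGFRA and PTPRZ1 and none for OLIG1 and OLIG2.

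The filament gene NES (TC0100016016.hg.1) had a log2 signal of 12.98, 12.74, 12.88 and 12.87 in the samples titled 23 Pa CSS and of 12.57, 12.02, 12.29 and 11.93 in those titled no CSS. The groups did not overlap, and the spread was 0.10 in the samples titled 23 Pa CSS and 0.29 in those titled no CSS (SD). The difference was 0.66, a 1.59-fold higher signal, with a 95% confidence interval of 0.27 to 1.06, and it did not pass (limma adjusted p = 0.0883). It passed where transcript clusters at background were left out of the test (adjusted p = 0.0193) and with a variance prior that follows the signal (adjusted p = 0.049). It did not pass with the replicate block (adjusted p = 0.137), without moderation (adjusted p = 0.186) or on arrays centred on hybridisation controls, where the difference was 0.35 (adjusted p = 0.272).

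VIM (TC1000006891.hg.1) had 16.97, 16.88, 16.76 and 17.01 in the samples titled 23 Pa CSS and 16.58, 16.76, 16.69 and 16.51 in those titled no CSS. The ranges touched but for the third decimal, and the difference of 0.27 did not pass (limma adjusted p = 0.434). A second row with the symbol VIM (TC1000009922.hg.1), for which the annotation gave no gene identifier, was below background at 6.38 ± 0.55 and 5.92 ± 0.54 (SD, titled 23 Pa CSS and titled no CSS). GFAP (TC1700012422.hg.1), below background, had 4.49, 4.52, 4.57 and 4.75 in the samples titled 23 Pa CSS and 4.42, 4.48, 3.99 and 4.30 in those titled no CSS (adjusted p = 0.459).

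Of 18 intermediate filament and lamin genes 0 passed in limma's test, and the median was 0.27. An unadjusted p below 0.05 was found for 5 of them, against 19.3% of all genes. The groups did not overlap for 6, all higher, against 9.11% of all genes. PLEC differed by 1.08 (limma adjusted p = 0.0991) and KRT18 by 0.92 (adjusted p = 0.0840), both above background on all 8 arrays. LMNA, which encodes the A-type lamins of the nuclear envelope, was 15.54 ± 0.14 in the samples titled 23 Pa CSS and 15.06 ± 0.13 in those titled no CSS (SD, n = 4 each). Its groups did not overlap, and its difference of 0.48 did not pass (limma adjusted p = 0.156). Synemin (SYNM), a filament protein that assembles with vimentin, differed by 0.50 (adjusted p = 0.275).

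PROM1 (TC0400012903.hg.1), below background, had 5.62, 5.49, 5.64 and 5.51 in the samples titled 23 Pa CSS and 4.78, 5.26, 5.38 and 5.21 in those titled no CSS. The groups did not overlap, the difference was 0.41 and it did not pass (limma adjusted p = 0.278). Centring on hybridisation controls left a difference of 0.095 (adjusted p = 0.814). Its relative PROM2 was at 4.63 and 4.32 in the same order, also below background. CHI3L1 (TC0100016983.hg.1) had 3.38, 3.50, 3.30 and 3.20 in the samples titled 23 Pa CSS and 3.13, 3.16, 3.36 and 3.01 in those titled no CSS (adjusted p = 0.647). On 5 of the 8 arrays this was below even the median of the antigenomic rows, which lay between 3.22 and 3.40. Of 6 genes of the chitinase-like family 0 passed in limma's test, and the median was 0.12. An unadjusted p below 0.05 was found for 1 of them, against 19.3% of all genes. That gene was CHI3L2, at 8.81 ± 0.20 in the samples titled 23 Pa CSS and 8.33 ± 0.29 in those titled no CSS (adjusted p = 0.245), above background on 7 of 8 arrays.

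**Figure D3:**
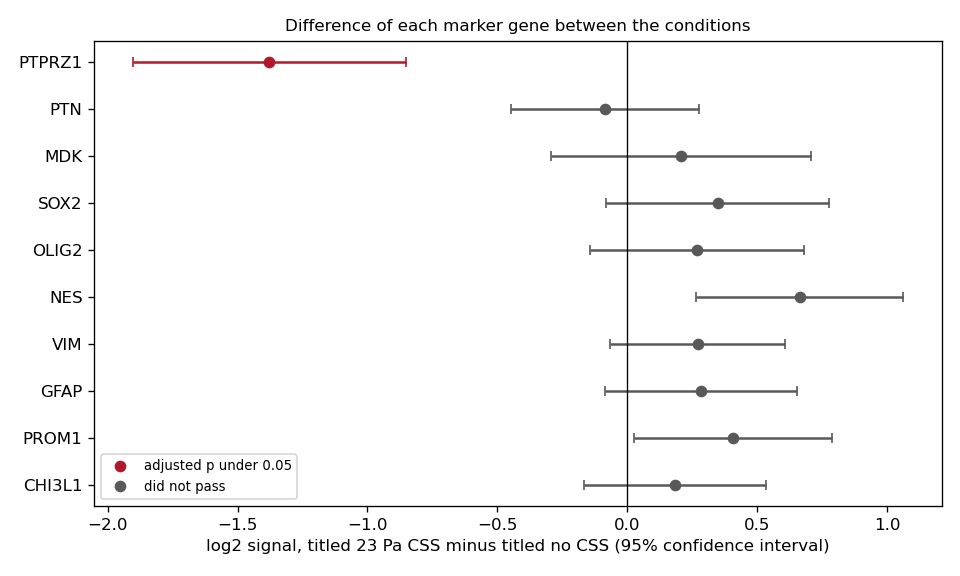
Difference in log2 signal (x axis, titled 23 Pa CSS minus titled no CSS) of each marker gene, with the 95% confidence interval from limma. PTPRZ1, at −1.38, was the 1 gene whose adjusted p was under 0.05 (red), and its interval lay below 0. The intervals of NES, from 0.27 to 1.06, and PROM1, from 0.025 to 0.79, lay above 0, and neither gene passed. PROM1 was below background on all 8 arrays, and on arrays centred on hybridisation controls the differences of NES and PROM1 were 0.35 and 0.095.

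The groups did not overlap for 5 of the 10 genes, PTPRZ1 lower and NES, VIM, GFAP and PROM1 higher, although VIM and GFAP turned to −0.040 and −0.026 on arrays centred on hybridisation controls. Groups did not overlap for 13.7% of all genes, 9.11% higher and 4.58% lower. Of the 6 members above background, 3 had groups that did not overlap, 2 higher and 1 lower. Of the 7350 genes above background on all 8 arrays these were 2200, 1456 and 744. The 4 hybridisation control rows, RNA added during the assay, averaged 0.31 higher in the samples titled 23 Pa CSS, and centring on them moved the median difference of all genes to −0.22. On that scale PTPRZ1 differed by −1.69 (limma adjusted p = 0.00522). The part of this shift in the small positive differences of the other members was not tested.

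Of 15 measured astrocyte markers ALDOC rose, NFIA fell and 13 did not pass, with a median of −0.03. ALDOC, a glycolytic aldolase of brain, was 12.47 ± 0.23 in the samples titled 23 Pa CSS and 9.92 ± 0.35 in those titled no CSS, a difference of 2.54 (SD, n = 4 each, limma adjusted p = 0.00129). NFIA, a transcription factor that starts glial differentiation, had 6.28, 6.50, 6.36 and 5.73 in the samples titled 23 Pa CSS and 7.96, 8.37, 8.38 and 7.75 in those titled no CSS. The difference was −1.90 (adjusted p = 0.00573), and NFIA stood above the antigenomic background on none of the arrays. It stood above the level of the negative control rows on the 4 arrays titled no CSS and on none titled 23 Pa CSS. S100B, a calcium-binding protein of glia, was 14.88 ± 0.13 and 14.91 ± 0.33 (adjusted p = 0.966). The glutamate transporter SLC1A3 was 7.74 ± 0.56 and 8.26 ± 0.19 (adjusted p = 0.36) and was above the antigenomic background on 1 of the 8 arrays. SOX9, which drives glial fate, was 7.18 and 7.01, and the water channel AQP4 was 4.74 and 4.51, both below background on all 8 arrays.

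Markers of other cell types were read from lists beside these. Of 9 measured oligodendrocyte markers and 10 neuron markers 0 passed in limma's test in either list, and the medians were 0.08 and −0.18. In these lists 3 and 1 were above background on all arrays. An unadjusted p below 0.05 was found for 2 and 4, against 19.3% of all genes. The 2 were MBP and OPALIN, higher titled 23 Pa CSS and below background. The 4 were MAP2, SYT1, SNAP25 and ELAVL4, all lower, of which only MAP2 was above background on all arrays. Of 8 endothelial markers 0 passed, 0 had an unadjusted p under 0.05, and none was above background on all arrays (median 0.02). Of 10 markers of microglia and macrophages CD68 rose and 9 did not pass, with a median of 0.31. An unadjusted p below 0.05 was found for 2, CD68 and PTPRC. PTPRC differed by 0.75 (limma adjusted p = 0.0505) and was below background on every array. CD68, a lysosomal membrane protein, was the 1 gene of that list above background, at 12.73 ± 0.45 in the samples titled 23 Pa CSS and 11.25 ± 0.13 in those titled no CSS (SD, n = 4 each, limma adjusted p = 0.0132, and 0.0508 without titled no CSS replicate 4). The medians of that list in single samples lay between 4.67 and 4.82 titled 23 Pa CSS and between 4.52 and 4.63 titled no CSS.

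**Figure D4:**
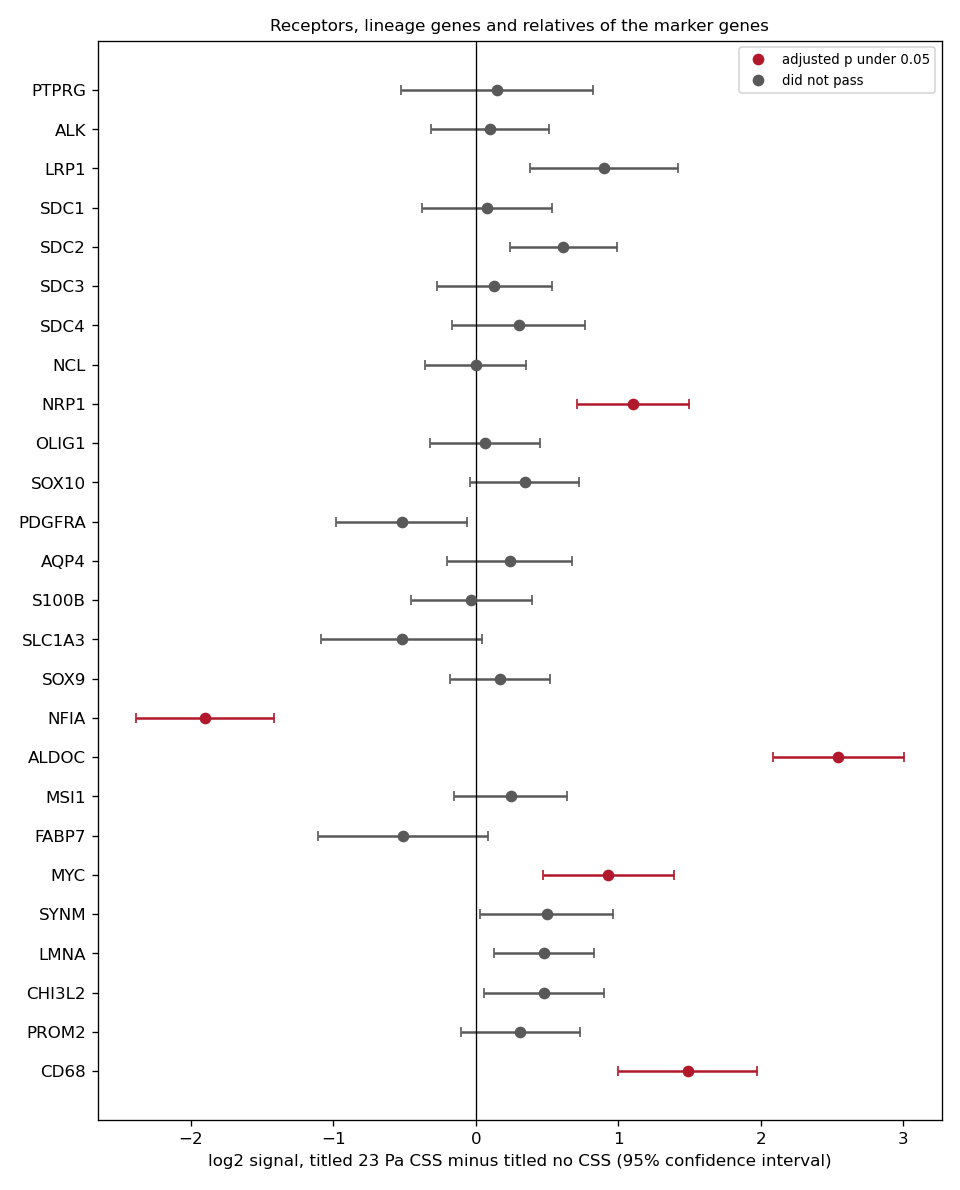
Difference in log2 signal (x axis, titled 23 Pa CSS minus titled no CSS) with 95% confidence intervals from limma, for receptors and partners of PTN and MDK (top), lineage genes (middle) and relatives of the marker genes (bottom), with CD68. Red points had an adjusted p under 0.05, from NFIA at −1.90 to ALDOC at 2.54.

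PTPRZ1 and NES were the members above background whose values spanned at least 1 log2 unit over the 8 samples, and the genes with the most similar pattern were sought among the 7349 other genes above background. The pattern nearest to PTPRZ1 was that of ZFYVE16, an endosomal protein (Pearson r = 0.981 over 8 samples), followed by the lipid phosphatase SACM1L (r = 0.979) and PNN, a nuclear protein of splicing complexes (r = 0.979). ZFYVE16 fell by 1.22 (limma adjusted p = 0.0276) and PNN by 1.47 (adjusted p = 0.0215), while SACM1L differed by −0.51 and did not pass (adjusted p = 0.141). In PNN, as in PTPRZ1, replicate 1 titled 23 Pa CSS was lowest (11.31), followed by replicates 4 (11.86), 2 (12.42) and 3 (12.57). The pattern nearest to NES was that of the cytokine gene TGFB1 (r = 0.989), which rose by 1.46 (adjusted p = 0.0219), followed by RNA5-8SP2, a pseudogene of 5.8S ribosomal RNA (r = 0.985, adjusted p = 0.0648), and TAF10, a subunit of the general transcription factor TFIID (r = 0.984, adjusted p = 0.146). The calls of ZFYVE16, PNN and TGFB1 each ended when single samples were left out, with adjusted p up to 0.086 for ZFYVE16 (without any 1 except titled 23 Pa CSS replicates 2 and 3), 0.0675 for PNN (without any 1 titled no CSS, or titled 23 Pa CSS replicate 4) and 0.0749 for TGFB1 (without titled no CSS replicate 2 or 4, or titled 23 Pa CSS replicate 1 or 4). The r values are the highest of 7349 correlations for each gene, over 8 samples that share arrays and the same division into conditions, and they are given as a description.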

How the data were processed

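Per the labels, RNA of LN229 cells was measured on 8 expression arrays, and the authors deposited log2 signal per transcript cluster, made with Transcriptome Analysis Console per the submitters' processing notes; its version, how probes were summarised and normalized, and the build are not given in the sources used here. Nothing says whether the 4 samples of a group were separate cultures, so the p-values cover the spread among these samples, which may be technical. Arrays carry no counts, and their number limits the precision.

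Of 138745 rows, 2995 control rows were left out and 135750 transcript clusters were tested with limma 3.58.1 in R 4.3.3 (6 residual and 5.28 prior degrees of freedom), read with the package data.table (version 1.17.8), without a filter. The procedure was also run on simulated data, the outcome of which is not given here and is no support for the calls. Python 3.11.15 with matplotlib 3.10.9 drew the figures. The probe annotation gave 1 symbol for 36176 transcript clusters and several for 1119; 25516 were matched to current symbols by Entrez identifier, 9899 by symbol, 623 by synonym and 138 not at all.

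The members and the gene lists were chosen with earlier results of these data known. Genes named besides the members were those of each list past the threshold (at most 6), lineage genes set out by name, and the 3 nearest patterns, except that the gene that rose among the substrates of PTPRZ1 is not reported here by name. The alternatives were scaling, filters, variance priors, array weights, a block for the replicate number, the mean of a gene's rows, and each sample left out.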

Additional observations from a re-analysis of the deposited data

Results flagged for a closer look

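In 4 of 90 groups of 4 samples examined, 1 sample stood apart from the other 3 by Dixon's criterion at the 95% level, which chance alone meets in about 1 of 20 groups. For SOX2, titled no CSS replicate 3 was at 10.92, against 10.54 to 10.56 in the other samples of its group. For OLIG2, titled no CSS replicate 4 was at 4.43, against 4.87 to 4.91, all below background. For ALDOC, titled 23 Pa CSS replicate 1 was at 12.81, against 12.33 to 12.39. For SOX9, titled no CSS replicate 1 was at 6.77, against 7.06 to 7.12.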

How the results depend on the processing

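The count of changed transcript clusters was 2727 (789 higher and 1938 lower in the samples titled 23 Pa CSS), 2574 (1126 and 1448) after quantile normalization, 8581 (373 and 8208) when centred on hybridisation controls, 4135 with a filter at antigenomic background, 5013 with a filter at the negative controls (added after seeing the data), 1329 with the replicate block, 83 without moderation, and 411 to 5360 with 1 sample left out. Of the members 2 passed, PTPRZ1 and NES, with either filter and with a trended, robust prior, 0 without moderation, and 0 to 1 with 1 sample left out. PTPRZ1 differed by −1.38 without moderation, where it did not pass, and by −1.53 to −1.22 with 1 sample left out (adjusted p 0.00854 to 0.0713). It kept its call with the replicate block (adjusted p = 0.0352). Same-numbered samples did not deviate together (r between −0.0791 and −0.0178), so the numbers were not taken to pair the samples. By sign permutation of those pairs (replicate block), the shifts of −1.29 (PTPRZ1 minus PTN) and −1.58 (PTPRZ1 minus MDK) had p = 0.125, the smallest 4 pairs allow. The shift of −0.29 (PTN minus MDK) had the same p, so this setting does not set the ligand pair apart. With 1 sample left out PTPRZ1 minus PTN ran from −1.39 to −1.14, PTPRZ1 minus MDK from −1.74 to −1.33, and PTN minus MDK from −0.41 to −0.18. PTPRZ1, PTN and MDK have 1 row each, so averaging rows changed none of them. Members above background numbered 6 at each threshold except the antigenomic median, which gave 9 by adding OLIG2, GFAP and PROM1.

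On arrays centred on hybridisation controls the sign turned, with no call, for CHI3L1 (−0.13), GFAP (−0.026), MDK (−0.10), OLIG2 (−0.043), VIM (−0.040), ALK (−0.21), AQP4 (−0.073), MSI1 (−0.067), NCL (−0.31), OLIG1 (−0.25), PTPRG (−0.16), SDC1 (−0.23), SDC3 (−0.18), SDC4 (−0.0098) and SOX9 (−0.14). It also turned for NCL with quantile normalization (−0.066), median centring (−0.025) and array weights (−0.012), and for ALK with the mean of its rows (−0.057). With 1 sample left out the ranges crossed 0 for ALK (−0.030 to 0.17), NCL (−0.059 to 0.052), OLIG1 (−0.049 to 0.17), PTPRG (−0.083 to 0.36), S100B (−0.14 to 0.13), SDC1 (−0.022 to 0.22) and SOX2-OT (−0.33 to 0.086). The causes were not tested.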
